A study of Astatotilapia calliptera with 66 samples.

Results

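The genes described here encode proteins of the spliceosome and of its regulators, measured as mRNA in the liver of a cichlid fish. Members were chosen by symbol alone: every gene whose symbol starts with snrp, sf3a, sf3b, prpf, srsf, u2af or hnrnp, or with lsm and a digit. The rule found 55 genes with 88 annotated transcripts, of 29676 genes and 51012 transcripts in the table, and all 55 passed the filter of a mean of at least 0.1 TPM (a transcript's share of its library, scaled to a fixed total) that 21147 genes passed. The lowest were sf3b3 and hnrnpll, with means of 0.110 and 0.181 TPM. Copies that carry only a locus number in the annotation were not reached by the rule, and reads of closely related copies may be split between them.

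The samples were homogenized livers of 13 wild-caught adult males of Astatotilapia calliptera, 1 library per fish, from 3 populations. The 4 riverine fish lived in the Mbaka River near crater Lake Masoko, the 4 littoral fish in its shallow waters, and the 5 benthic fish in its deep waters. The comparisons address how liver expression differs between the river and the lake populations, and between the lake populations. Values of single livers are always given in the same order of fish: riverine G08F07, G09D04, G09D07 and G09D10, littoral G08H10, G10G05, G10H04 and G10H05, and benthic G10E03, G10E09, G10F07, G10G01 and G10G02. All riverine libraries and littoral G08H10 were sequenced in 1 run (the riverine run), and the other littoral and all benthic libraries in another (the lake run), so that population and run cannot be told apart between riverine and benthic livers. In whole tissue, fewer cells of a type and less RNA per cell cannot be told apart either. TPM keep no read depth, and no counting interval can be given for a value.

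Introns are removed from pre-mRNA by small nuclear ribonucleoproteins (snRNPs), particles of a small RNA and its proteins. Sm proteins form a ring around the RNA of most of these particles, and the related LSM proteins form a ring around U6. The U1 particle binds the start of the intron, whereas U2AF and the U2 particle with its SF3A and SF3B subcomplexes bind near its end. PRPF proteins bring in the U4, U5 and U6 particles and remodel the complex. SR and hnRNP proteins bind the pre-mRNA itself and shift which exons are kept. Expression of these genes is found in nearly every cell type, and hepatocytes make up most of the liver. The members were grouped accordingly into 7 Sm genes, 12 U1 and U2 snRNP genes, 11 PRPF genes, 12 LSM genes, 1 U2AF gene, 4 SR genes and 8 hnRNP genes. Not all members act only in splicing: LSM1 is known for mRNA decay, LSM10 and LSM11 for the U7 particle that processes histone mRNA, and LSM14B for the control of translation.

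By the means of summed TPM, splicing factor mRNA took a larger part of the transcripts in lake livers than in riverine livers. The summed level of the 55 members was 574, 779.9, 601 and 632 TPM in the riverine livers, 924, 1232, 1059 and 872 TPM in the littoral livers and 842, 1198, 747, 1029 and 1570.4 TPM in the benthic livers. The riverine livers lay between 574 and 779.9 TPM and the littoral livers between 872 and 1232 TPM, with no overlap, whereas benthic G10F07 (747 TPM) fell below riverine G09D04 (779.9 TPM). The means were 646 ± 92.1 TPM (SD, n = 4) in riverine, 1022 ± 161 TPM (SD, n = 4) in littoral and 1077 ± 326 TPM (SD, n = 5) in benthic livers, 1.58 and 1.67 times the riverine mean. The sums depend on how libraries are scaled to each other: after median-of-ratios scaling, which sets the typical gene to the same level in each library, the ratios were 1.23 and 1.07. After quantile normalization, which gives every library the same distribution of values, they were 1.44 and 1.44. With median-of-ratios scaling the littoral mean rested largely on G08H10, at 1391, with 858, 850 and 923 in the other littoral livers. The riverine livers were then between 735 and 874, so that riverine and littoral livers overlapped.

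The Sm group differed most between riverine and littoral livers. Its summed level was 111, 129, 127 and 100.7 TPM in the riverine livers, 342, 325, 252 and 208 TPM in the littoral livers and 166, 246, 126, 328 and 406 TPM in the benthic livers. All 4 littoral livers lay above all 4 riverine livers, by 2.41 times in the mean, and the benthic livers covered a wider range of 126 to 406 TPM. The littoral ratio was 2.24 without G08H10, 1.95 after median-of-ratios scaling and 2.22 after quantile normalization. The ratio of 1.95 rested largely on G08H10. With that scaling its Sm sum was 515, against 226, 202 and 220 in the other littoral livers. The riverine livers were then between 121 and 171. The hnRNP group stood highest in benthic livers, at 178 ± 63.5 TPM (SD, n = 5) against 82.7 ± 18.7 TPM (SD, n = 4) in riverine livers. The benthic to riverine ratio of the hnRNP sums was 2.15, and 1.38 after median-of-ratios scaling. The U1 and U2 snRNP group had the smallest ratios, 1.18 in littoral and 1.2001 in benthic livers. These turned to 0.904 and 0.776 after median-of-ratios scaling. Much of each sum was 1 gene, sf3b6, which went the other way. It averaged 87.9, 58.9 and 66.8 TPM in riverine, littoral and benthic livers, where the group averaged 174, 205 and 209 TPM. The group's median log2 fold changes were near those of all members: 0.82 (littoral) and 0.77 (benthic), beside 0.81 and 0.81. With median-of-ratios scaling the group's medians were 0.44 and 0.20, beside 0.43 and 0.23 for all members. For the LSM group the benthic ratio was 1.504. It turned to 0.969 with median-of-ratios scaling and was 1.25 after quantile normalization. The LSM ratios are lowered by lsm14b in 2 riverine livers. With median-of-ratios scaling that gene was at 13.2 in G09D04 and 24.0 in G09D10, and at most 0.188 in benthic livers.

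**Figure D1:**
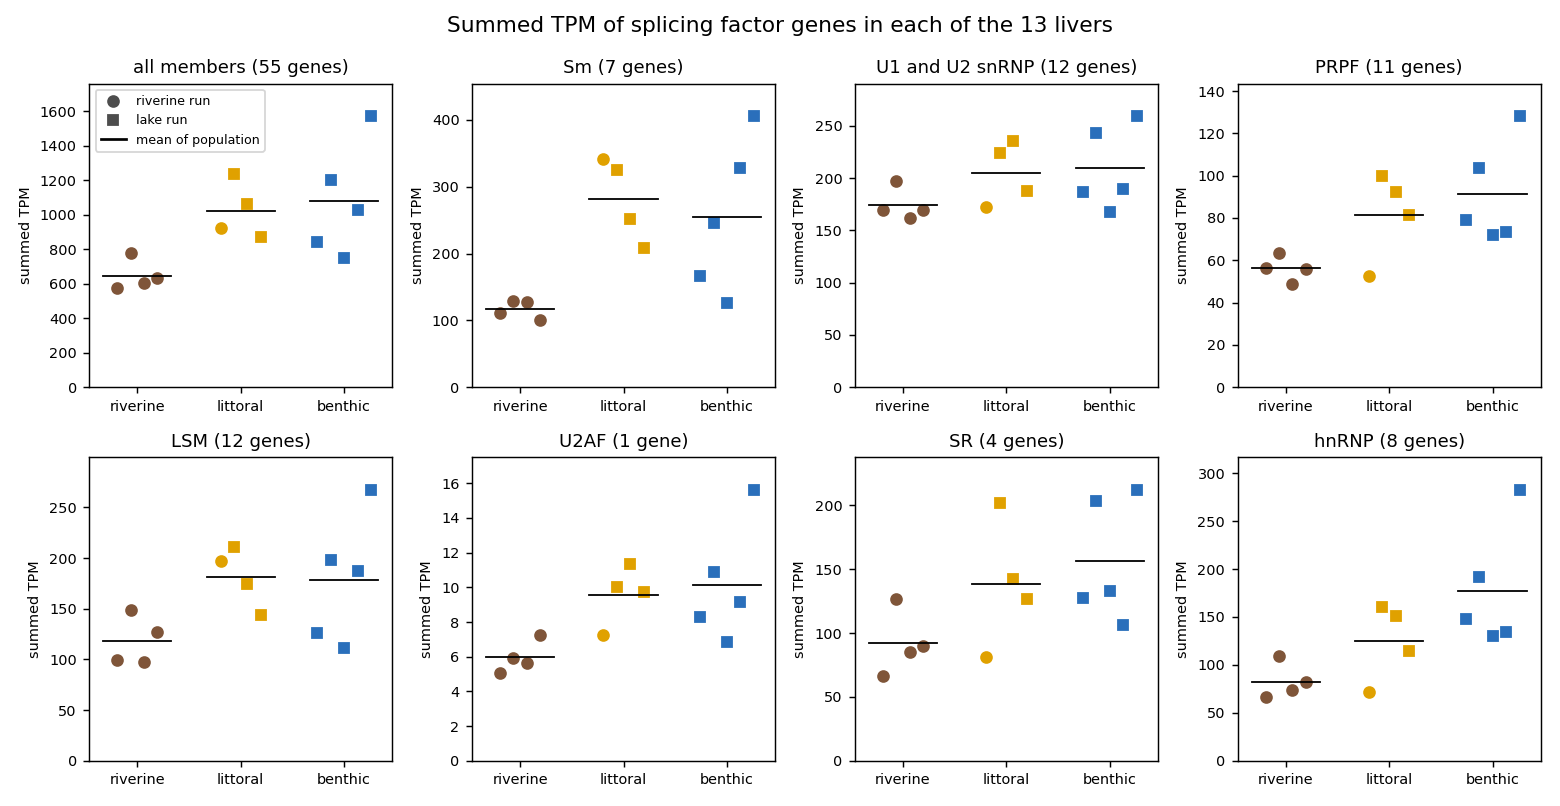
Summed TPM (vertical axes, from 0) of all 55 splicing factor genes and of each role group in each liver, by population, with circles for the riverine run, squares for the lake run and lines for the population means. The 4 riverine livers have Sm sums between 100.7 and 129 TPM, below all littoral livers, and the highest benthic point in every panel is G10G02.

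Gene by gene, more members were called from riverine to benthic livers than in the other comparisons, and every call was in the lake direction. A gene was called at a limma adjusted p under 0.05, on the log2(TPM + 0.1) scale, where fold changes of low genes are understated. From riverine to benthic livers 11 of 55 members were higher (20%), against 9.66% of all genes tested, and 0 were lower, against 1.49%. From riverine to littoral livers 3 of 55 were higher (5.45%), against 0.998% of all genes, and 0 were lower, against 0.459%. From littoral to benthic livers 0 members were called in either direction, against 0.312% of all genes called higher and 0.0473% called lower, and 1 member had an unadjusted p under 0.05. At the stricter definition of a differentially expressed gene (DEG; a change of at least 1.5 on the log2 scale and 10 TPM in any liver as well), hnrnpa3 and snrpd3 qualified from riverine to benthic livers, against 2.93% of all genes. No member was a DEG in the other comparisons, where 0.761% (riverine to littoral) and 0.222% (littoral to benthic) of all genes were.

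All genes shifted in the same direction as the members. Their median, on the log2 scale, was 0.40 in littoral and 0.62 in benthic livers relative to riverine livers, beside medians of 0.81 and 0.81 over the 55 members. Of the members, 50 and 53 had values above 0, beside 70% and 76.2% of all genes. The shift of all genes was smaller at higher levels: among genes of 10 to 50 TPM, which hold 29 members, the median was 0.23 for littoral and 0.25 for benthic livers, beside 0.82 and 0.87 for those 29 members. With median-of-ratios scaling the medians of all genes were 0.08 and 0.12, and those of the members 0.43 and 0.23. With that scaling 1 member (sf3a3) was higher in littoral livers, against 0.804% of all genes, and 0 were lower, against 1.29%. In benthic livers 4 members (hnrnpa3, prpf3 and snrpb2 among them) were then higher, against 5.2% of all genes, and 1 (sf3b6) was lower, against 4.96%.

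Counted by livers that do not overlap, 22 members had every littoral value above every riverine value (40%), against 7.9% of all genes. Of these 22, 7 were Sm, 5 PRPF, 5 U1 and U2 snRNP, 4 LSM and 1 U2AF genes. The count of 0 SR and hnRNP genes there rested on G08H10: without it 32 members had every littoral value above the riverine livers (58.2%), against 17% of all genes, and these included 1 SR gene (srsf7) and 3 hnRNP genes (hnrnpa1, hnrnph1 and hnrnpu). Every benthic value lay above every riverine value in 15 members (27.3%), against 14.2% of all genes, and 5 of these were hnRNP genes. Only sf3b6 had every lake value below every riverine value, in both comparisons, against 1.73% (littoral) and 2.52% (benthic) of all genes.

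The counts of calls rested on single livers, for the members as for all genes. From riverine to benthic livers the 11 calls (20%) became 1 without riverine G08F07, against 2.7% of all genes called higher in the same fit. They also became 1 without riverine G09D10, against 1.59% of all genes, and 1 without benthic G10E09, against 2.81%. The members' share thus came near that of all genes without any 1 of these 3 livers. The calls became 5 (9.09%) without riverine G09D07, against 3.26% of all genes, and 3 (5.45%) without benthic G10G02, against 3.68%. Without benthic G10E03 and G10G01 they were 7 (13%) and 6 (11.1%), against 6.93% and 7.36% of all genes. They became 20 (36.4%) without riverine G09D04, against 15% of all genes, and 17 (30.9%) without littoral G08H10, against 12.9%.

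From riverine to littoral livers the 3 calls became 0 without any 1 of riverine G08F07, G09D07 and G09D10, littoral G10G05, G10H04 and G10H05, and benthic G10E03 and G10E09, where 0.245% to 0.538% of all genes were called higher. They became 7 (12.7%) without riverine G09D04, against 3.39% of all genes, 11 (20%) without benthic G10F07, against 1.56%, 1 without benthic G10G01, against 0.631%, and 2 without littoral G08H10, against 1.39%. All of these calls were in the lake direction.

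The sequencing run could be separated from population only through the littoral livers, 1 of which (G08H10) was in the riverine run and 3 in the lake run. In a fit with the run as a covariate, the riverine to littoral values therefore compare G08H10 alone with the riverine livers. The riverine to benthic values also rest in part on this library. With the run as a covariate, 0 members were called from riverine to benthic livers, where 0.26% of all genes were called higher and 1.93% lower. Of the 11 members called without it, 10 kept values above 0, and the values ranged from -0.0026 (hnrnph1) to 3.76. From riverine to littoral livers 1 member was then higher (snrpd3) and 1 lower (prpf38b), beside 0.326% and 1.98% of all genes, and the median of all genes turned from 0.40 to -0.16.

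**Figure D2:**
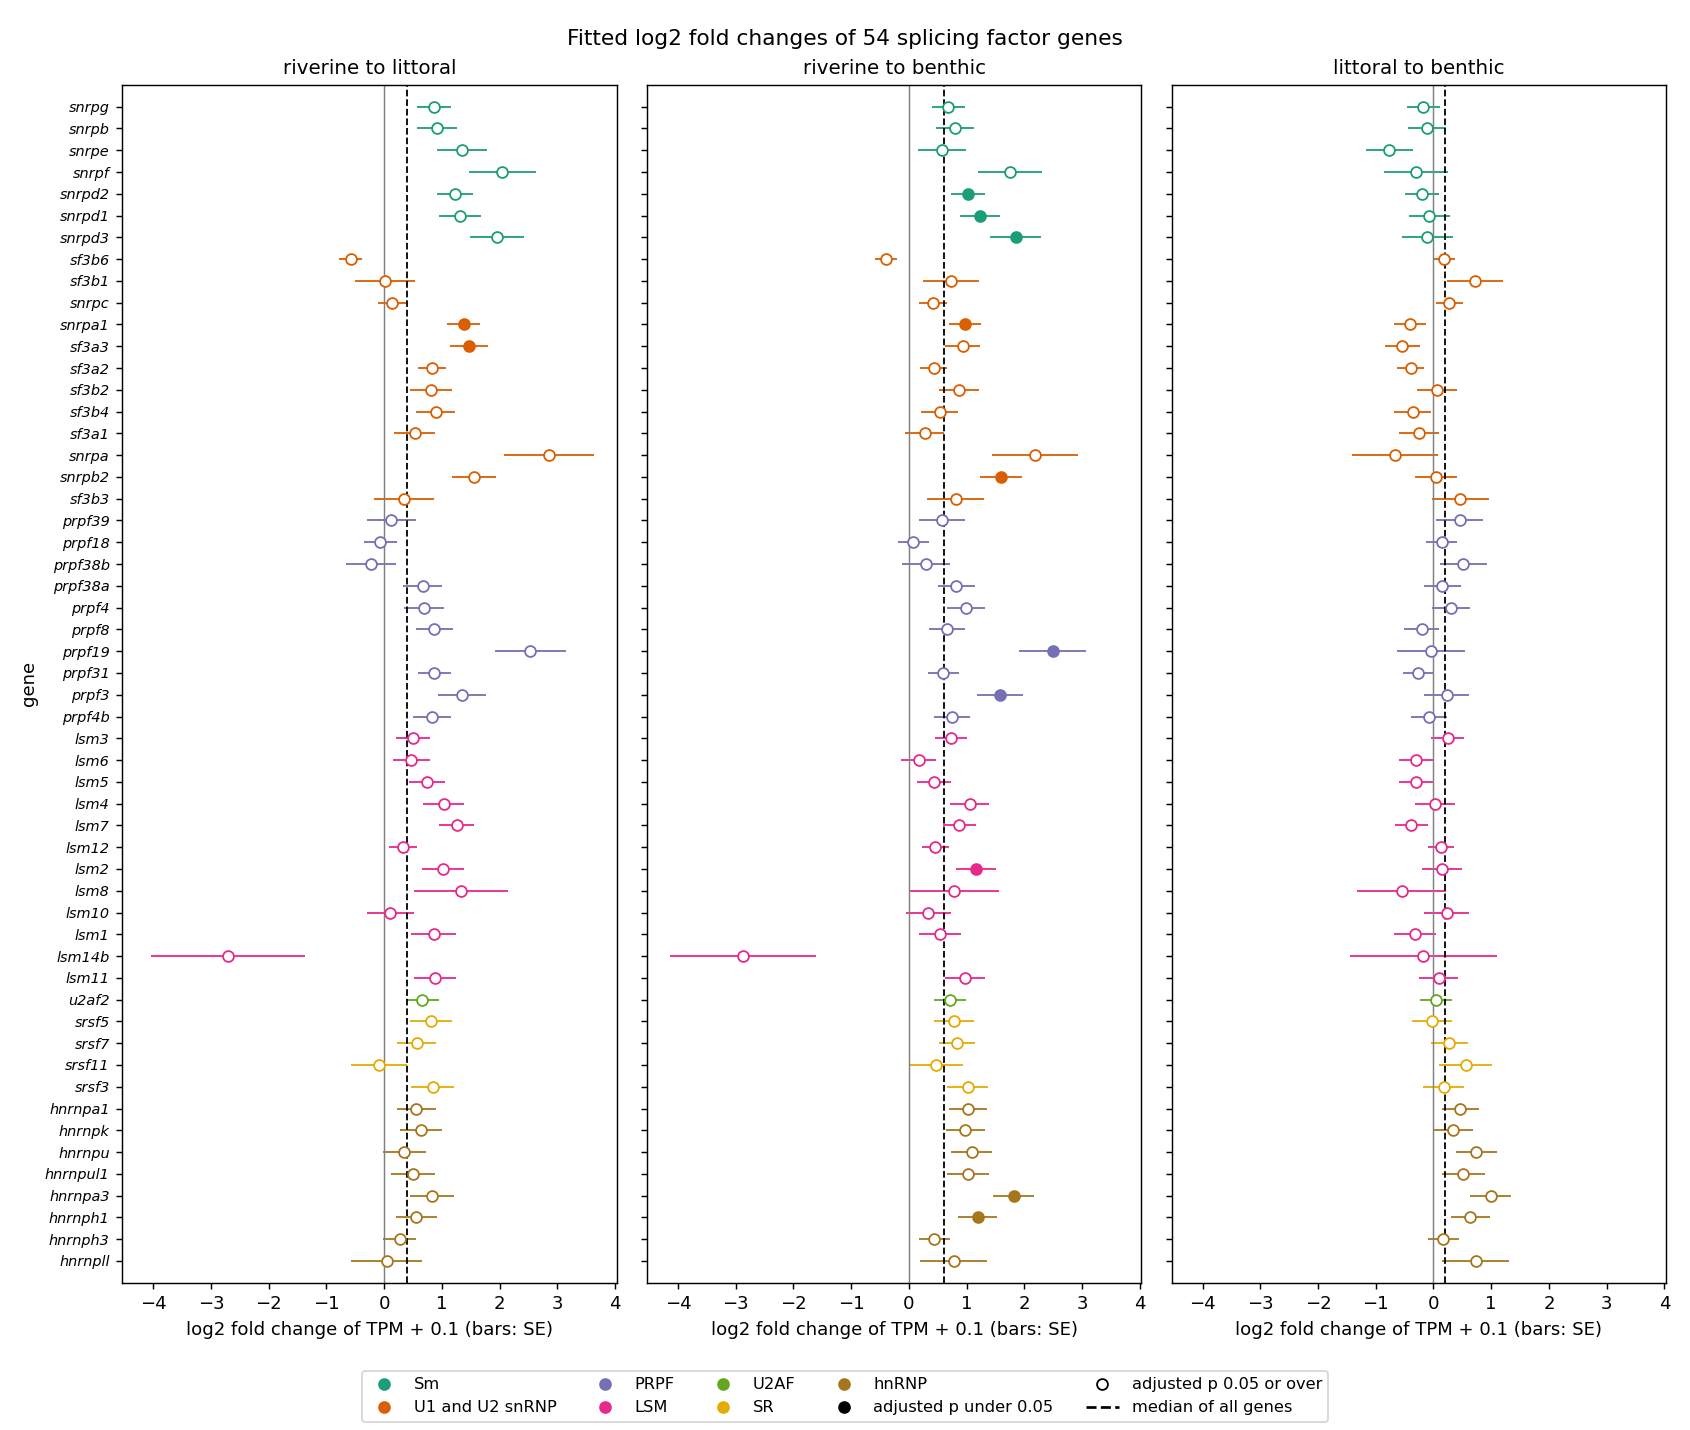
Fitted log2 fold changes (horizontal axes) with standard errors for 54 of the 55 genes (vertical axis, by role and mean level) in the 3 comparisons; filled points have an adjusted p under 0.05, solid vertical lines mark 0 and dashed lines the median of all genes. In both river to lake panels most points lie to the right of the dashed line, 40 of 54 for littoral and 36 of 54 for benthic livers, and no point is filled in the littoral to benthic panel.

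Among the Sm genes, snrpd1, snrpd2 and snrpd3 rose from riverine to benthic livers, and none was called from riverine to littoral livers. snrpd3 (Sm D3, part of the Sm ring) measured 6.65, 11.1, 8.19 and 3.78 TPM in the riverine livers, 51.4, 27.4, 22.1 and 17.4 TPM in the littoral livers and 17.0, 28.7, 12.5, 42.4 and 39.3 TPM in the benthic livers. No lake liver overlapped the riverine range, and littoral G08H10 was the highest of all. Its log2 fold change was 1.849 ± 0.44 (SE) with limma's adjusted p = 0.0230 in benthic and 1.96 ± 0.46 (SE) with limma's adjusted p = 0.0526 in littoral livers. With median-of-ratios scaling the benthic value was 1.25 (adjusted p = 0.101, and 0.0148 to 0.101 over all alternatives).

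snrpd1 (Sm D1) measured 10.5, 13.1, 12.1 and 8.70 TPM in the riverine livers, 35.6, 30.5, 23.7 and 21.6 TPM in the littoral livers and 18.8, 28.8, 12.8, 39.8 and 43.3 TPM in the benthic livers. Only benthic G10F07 reached into the riverine range, and the change was 1.24 ± 0.35 (SE) with limma's adjusted p = 0.0376. snrpd2 (Sm D2) measured 17.6, 15.7, 10.7 and 11.53 TPM in the riverine livers, 36.9, 34.3, 29.6 and 27.5 TPM in the littoral livers and 22.1, 31.0, 16.1, 34.1 and 42.9 TPM in the benthic livers. Again only benthic G10F07 overlapped the riverine livers, and the change was 1.02 ± 0.29 (SE) with limma's adjusted p = 0.0418. With median-of-ratios scaling neither kept its call, at 0.64 (adjusted p = 0.253, and 0.0161 to 0.253 over all alternatives) and 0.42 (adjusted p = 0.4004, and 0.0216 to 0.4004 over all alternatives).

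The most abundant Sm genes were snrpg and snrpb, which encode Sm G and the B proteins of the ring. snrpg measured 31.9, 30.7, 32.7 and 22.7 TPM in the riverine livers, 55.1, 81.6, 44.3 and 39.9 TPM in the littoral livers and 32.6, 51.9, 35.5, 60.5 and 63.1 TPM in the benthic livers. Its log2 fold change was 0.86 ± 0.30 (SE) with limma's adjusted p = 0.145 in littoral livers, which all lay above the riverine livers, and 0.69 ± 0.28 (SE) in benthic livers with adjusted p = 0.114. snrpb measured 25.1, 24.1, 28.7 and 30.0 TPM in the riverine livers, 42.3, 66.8, 57.9 and 40.8 TPM in the littoral livers and 32.1, 44.4, 31.4, 49.0 and 105 TPM in the benthic livers. Every lake liver lay above the riverine range, benthic G10G02 furthest, yet the adjusted p values were 0.175 (littoral) and 0.109 (benthic, limma). The remaining members of the ring, snrpe and snrpf, were at 14.0 to 24.7 TPM and 4.89 to 10.2 TPM in riverine livers, 32.8 to 67.8 TPM and 24.2 to 53.3 TPM in littoral livers, and 11.7 to 52.3 TPM and 5.99 to 59.3 TPM in benthic livers.

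Of the 12 U1 and U2 snRNP genes, snrpa1 and sf3a3 rose from riverine to littoral livers, and snrpa1 and snrpb2 from riverine to benthic livers. snrpa1 encodes the A′ protein of the U2 particle. It measured 6.43, 8.03, 6.55 and 7.46 TPM in the riverine livers, 23.3, 20.6, 17.2 and 14.6 TPM in the littoral livers and 12.6, 16.8, 8.40, 17.8 and 17.1 TPM in the benthic livers. Both lake populations lay wholly above the riverine range, with benthic G10F07 closest to it. The changes were 1.38 ± 0.29 (SE) with limma's adjusted p = 0.0344 (littoral) and 0.98 ± 0.27 (SE) with limma's adjusted p = 0.0371 (benthic), and with median-of-ratios scaling 1.003 (adjusted p = 0.108, and 0.0188 to 0.108 over all alternatives) and 0.38 (adjusted p = 0.427, and 0.0179 to 0.427 over all alternatives). Within the riverine run, the single littoral liver G08H10 (23.3 TPM) also lay above the 4 riverine livers (6.43 to 8.03 TPM).

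snrpb2, which encodes the B″ protein that binds U2 RNA together with A′, measured 0.881, 1.40, 1.25 and 1.06 TPM in the riverine livers, 3.30, 5.87, 3.07 and 2.59 TPM in the littoral livers and 2.80, 5.06, 1.90, 5.05 and 4.56 TPM in the benthic livers. No lake liver overlapped the riverine range. The change was 1.596 ± 0.36 (SE) with limma's adjusted p = 0.0200 in benthic livers and 1.56 ± 0.38 (SE) with limma's adjusted p = 0.0576 in littoral livers. With median-of-ratios scaling the benthic value kept its call, at 1.02 (adjusted p = 0.0478, and 0.0125 to 0.358 over all alternatives). sf3a3 (a subunit of SF3A, which joins the U2 particle at the branch point) measured 6.44, 8.20, 5.72 and 5.60 TPM in the riverine livers, 12.4, 23.5, 20.0 and 17.7 TPM in the littoral livers and 11.1, 14.6, 7.26, 11.8 and 20.3 TPM in the benthic livers. All littoral livers lay above the riverine livers, and the change was 1.47 ± 0.33 (SE) with limma's adjusted p = 0.0432, with 1.09 (adjusted p = 0.0291, and 0.0198 to 0.358 over all alternatives) after median-of-ratios scaling. In benthic livers, where G10F07 overlapped the riverine range, it was 0.93 ± 0.31 (SE) with limma's adjusted p = 0.0641. snrpa, the U1 A protein, had larger fitted values without a call, 2.86 ± 0.78 (SE) with limma's adjusted p = 0.0780 (littoral) and 2.19 ± 0.74 (SE) with limma's adjusted p = 0.0681 (benthic), at 0.236 to 1.602 TPM in riverine, 2.55 to 9.10 TPM in littoral and 0.46 to 8.51 TPM in benthic livers.

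sf3b6 went the other way. It encodes p14, the SF3B subunit next to the branch point, and was the most abundant member of its group. It measured 98.9, 94.1, 78.7 and 79.9 TPM in the riverine livers, 63.7, 48.2, 65.9 and 57.6 TPM in the littoral livers and 64.5, 73.9, 62.1, 62.3 and 71.2 TPM in the benthic livers. All 9 lake livers lay below all 4 riverine livers. Nevertheless the log2 fold changes of -0.58 ± 0.20 (SE) with limma's adjusted p = 0.145 (littoral) and -0.39 ± 0.19 (SE) with limma's adjusted p = 0.170 (benthic) were not called. With median-of-ratios scaling they were -0.96 (adjusted p = 0.108, and 0.0809 to 0.509 over all alternatives) and -0.996 (adjusted p = 0.0455, and 0.0455 to 0.816 over all alternatives), and the second was called. sf3b1, the large scaffold of SF3B and the next most abundant, measured 15.5, 35.4, 18.5 and 19.8 TPM in the riverine livers, 5.93, 35.2, 44.1 and 22.4 TPM in the littoral livers and 34.2, 38.9, 33.9, 23.3 and 51.7 TPM in the benthic livers. Littoral G08H10 was the lowest of all livers, and the values of 0.01 ± 0.51 (SE) with limma's adjusted p = 1.0 (littoral) and 0.73 ± 0.49 (SE) with limma's adjusted p = 0.307 (benthic) were not called.

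**Figure D3:**
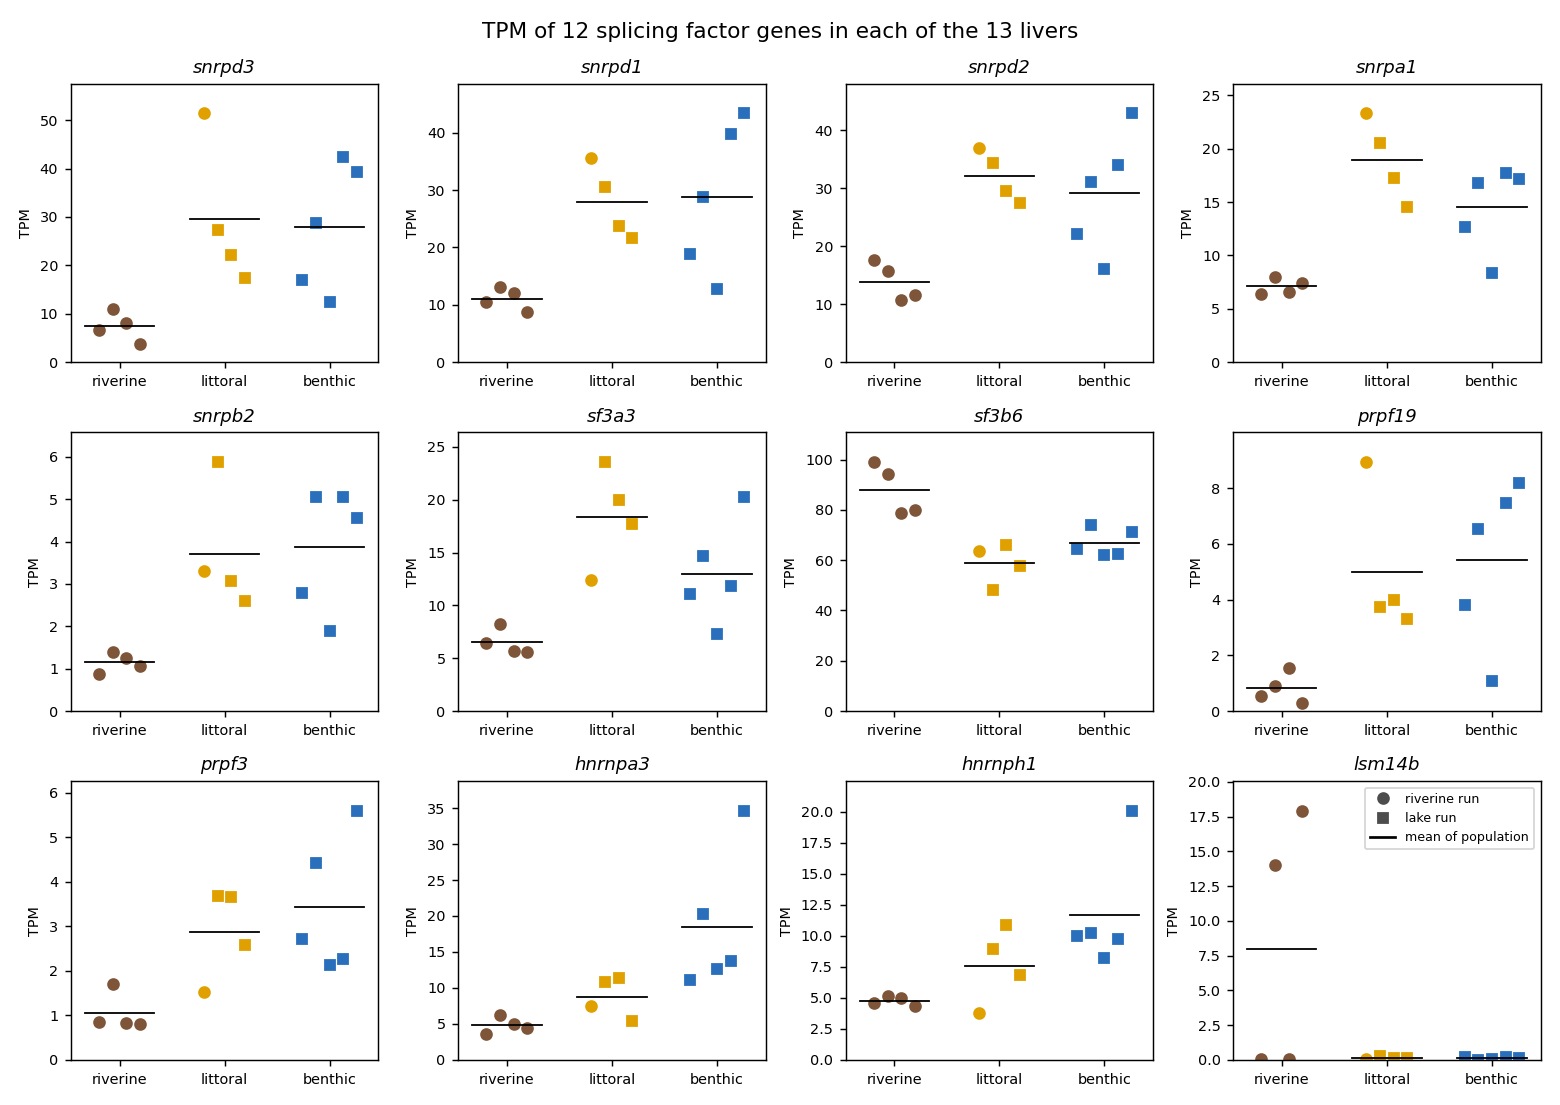
TPM (vertical axes, from 0) of 12 splicing factor genes in each of the 13 livers by population, with circles for the riverine run, squares for the lake run and lines for the population means. The riverine livers are lowest for snrpd3 and snrpb2 and highest for sf3b6, and lsm14b is at 14.0 and 17.9 TPM in 2 riverine livers and near 0 in the rest.

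Among the 11 PRPF genes, prpf19 and prpf3 were among those that rose from riverine to benthic livers. prpf19 is the ubiquitin ligase at the core of the complex that activates the spliceosome. It measured 0.541, 0.914, 1.54 and 0.299 TPM in the riverine livers, 8.93, 3.72, 3.98 and 3.30 TPM in the littoral livers and 3.80, 6.53, 1.09, 7.45 and 8.19 TPM in the benthic livers. All lake livers but benthic G10F07 lay above the riverine range. The change was 2.49 ± 0.58 (SE) with limma's adjusted p = 0.0220 in benthic livers, and 2.53 ± 0.61 (SE) with limma's adjusted p = 0.0553 in littoral livers. With median-of-ratios scaling the benthic value was 1.94 (adjusted p = 0.0567, and 0.00712 to 0.117 over all alternatives), and the call was lost.

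prpf3, a protein of the U4/U6 particle, measured 0.856, 1.70, 0.832 and 0.817 TPM in the riverine livers, 1.54, 3.68, 3.66 and 2.57 TPM in the littoral livers and 2.72, 4.42, 2.13, 2.28 and 5.59 TPM in the benthic livers. All benthic livers lay above all riverine livers, whereas littoral G08H10 fell below riverine G09D04. The change was 1.58 ± 0.39 (SE) with limma's adjusted p = 0.0266 in benthic livers and kept its call with median-of-ratios scaling, 1.01 (adjusted p = 0.0225, and 0.0135 to 0.778 over all alternatives). In littoral livers it was 1.35 ± 0.42 (SE) with limma's adjusted p = 0.104. prpf39 and prpf18, the most abundant genes of this group, showed no call: prpf39, linked to the U1 particle, was at 15.8 to 21.8 TPM in riverine, 6.75 to 32.0 TPM in littoral and 19.2 to 40.1 TPM in benthic livers. prpf18, which acts in the second step of splicing, was at 8.35 to 13.3 TPM, 7.26 to 12.3 TPM and 8.33 to 15.6 TPM in the same order.

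prpf38a and prpf38b are the only pair of members whose numbered symbols differ by a final a or b. prpf38a, which is needed for activation of the spliceosome, measured 10.4, 6.07, 3.80 and 3.92 TPM in the riverine livers, 7.49, 10.1, 10.4 and 7.84 TPM in the littoral livers and 9.998, 12.0, 8.66, 6.92 and 12.97 TPM in the benthic livers. prpf38b measured 7.95, 7.70, 6.75 and 9.16 TPM in the riverine livers, 2.25, 10.7, 9.27 and 8.90 TPM in the littoral livers and 8.59, 12.2, 8.53, 6.64 and 14.0 TPM in the benthic livers. The levels of prpf38b spanned all populations, with littoral G08H10 the lowest of all 13 livers. The littoral log2 fold changes were 0.67 ± 0.34 (SE) with limma's adjusted p = 0.310 for prpf38a and -0.22 ± 0.43 (SE) with limma's adjusted p = 0.800 for prpf38b, and no difference between the genes was tested. prpf8, the large protein at the heart of the U5 particle, lay above the riverine range in every littoral liver (3.93 to 7.01 TPM against 2.36 to 3.46 TPM), with adjusted p = 0.171 by limma.

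In the LSM group, only lsm2 was called, from riverine to benthic livers. lsm2, shared by the nuclear ring on U6 and the cytoplasmic ring of mRNA decay, measured 9.59, 8.61, 3.86 and 5.61 TPM in the riverine livers, 15.2, 18.3, 11.7 and 9.55 TPM in the littoral livers and 11.3, 15.6, 9.84, 15.7 and 25.3 TPM in the benthic livers. No benthic liver overlapped the riverine range, and riverine G08F07 (9.59 TPM) came closest to benthic G10F07 (9.84 TPM). The change was 1.16 ± 0.35 (SE) with limma's adjusted p = 0.0478, and 0.57 (adjusted p = 0.279, and 0.0376 to 0.358 over all alternatives) with median-of-ratios scaling. lsm3 and lsm6, both part of the same rings, were the most abundant. lsm3 was at 16.6 to 28.4 TPM in riverine, 27.2 to 35.05 TPM in littoral and 26.0 to 58.6 TPM in benthic livers, with adjusted p = 0.388 (littoral) and 0.0913 (benthic, limma). lsm6 was at 22.0 to 31.0 TPM, 24.9 to 45.7 TPM and 18.7 to 45.7 TPM, with adjusted p = 0.443 and 0.708. lsm8, specific to the nuclear ring, ranged from 1.23 to 26.0 TPM in benthic livers alone.

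lsm14b differed within the riverine population. This gene was singled out after its values were seen. It measured 0.0502, 14.0, 0.0491 and 17.9 TPM in the riverine livers, 0.0733, 0.267, 0.132 and 0.114 TPM in the littoral livers and 0.208, 0.0224, 0.0696, 0.194 and 0.118 TPM in the benthic livers. Riverine G09D04 and G09D10 thus had 14.0 and 17.9 TPM, while the other 11 livers had at most 0.267 TPM. The fitted log2 fold changes of -2.70 ± 1.34 (SE) with limma's adjusted p = 0.292 (littoral) and -2.88 ± 1.27 (SE) with limma's adjusted p = 0.133 (benthic) were not called, and they describe an average over livers that do not resemble each other.

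u2af2, the large subunit of U2AF, and the 4 SR genes were not called in any comparison. u2af2 measured 5.09, 5.96, 5.65 and 7.23 TPM in the riverine livers, 7.24, 10.01, 11.3 and 9.71 TPM in the littoral livers and 8.30, 10.9, 6.87, 9.14 and 15.6 TPM in the benthic livers. All littoral livers lay above the riverine livers, narrowly in the closest pair, and adjusted p was 0.236 (littoral) and 0.0975 (benthic, limma). The most abundant SR genes were srsf5 and srsf7, which bind exons and promote their inclusion. srsf5 measured 19.8, 52.8, 25.9 and 38.2 TPM in the riverine livers, 38.5, 75.5, 65.7 and 51.8 TPM in the littoral livers and 49.2, 80.8, 61.9, 30.5 and 67.9 TPM in the benthic livers. The populations overlapped, and the log2 fold changes were 0.81 ± 0.37 (SE) with limma's adjusted p = 0.250 (littoral) and 0.79 ± 0.35 (SE) with limma's adjusted p = 0.134 (benthic). srsf7 was at 17.4 to 31.7 TPM in riverine, 25.5 to 52.4 TPM in littoral and 27.9 to 66.0 TPM in benthic livers, with adjusted p = 0.385 and 0.0918.

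Among the hnRNP genes, hnrnpa3 and hnrnph1 rose from riverine to benthic livers. hnrnpa3 binds RNA much as its relative hnRNP A1, a factor best known for exon skipping. It measured 3.64, 6.26, 4.93 and 4.38 TPM in the riverine livers, 7.48, 10.9, 11.3 and 5.44 TPM in the littoral livers and 11.1, 20.3, 12.6, 13.8 and 34.6 TPM in the benthic livers. No benthic liver overlapped the riverine range, and benthic G10G02 was the highest. The change was 1.816 ± 0.36 (SE) with limma's adjusted p = 0.0120, and 1.22 (adjusted p = 0.0155, and 0.00914 to 0.310 over all alternatives) with median-of-ratios scaling. It was the member whose call held in the most alternatives, 25 of 26, and was lost only with the sequencing run as a covariate (adjusted p = 0.310). In littoral livers the value was 0.82 ± 0.38 (SE) with limma's adjusted p = 0.257.

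hnrnph1, which binds runs of G, measured 4.59, 5.14, 4.99 and 4.38 TPM in the riverine livers, 3.74, 8.90, 10.9 and 6.80 TPM in the littoral livers and 9.95, 10.2, 8.21, 9.77 and 20.0 TPM in the benthic livers. No benthic liver overlapped the riverine range, and the change was 1.19 ± 0.34 (SE) with limma's adjusted p = 0.0394, with 0.60 (adjusted p = 0.101, and 0.0192 to 0.999 over all alternatives) after median-of-ratios scaling. hnrnpa1, the most abundant of the group, measured 30.6, 50.7, 34.3 and 43.7 TPM in the riverine livers, 30.5, 79.0, 76.0 and 59.9 TPM in the littoral livers and 73.1, 85.6, 58.2, 65.9 and 133 TPM in the benthic livers. The benthic livers lay above all riverine livers at 1.03 ± 0.32 (SE) with limma's adjusted p = 0.0555, which missed the threshold. hnrnpk, which binds runs of C, was at 6.45 to 17.5 TPM in riverine, 12.6 to 18.0 TPM in littoral and 12.2 to 29.1 TPM in benthic livers, with adjusted p = 0.356 (littoral) and 0.0729 (benthic, limma).

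Between the lake populations no member was called. The Sm and hnRNP groups had values of opposite sign: all 7 Sm genes had log2 fold changes below 0 from littoral to benthic livers (median -0.18, lowest -0.77 for snrpe), and all 8 hnRNP genes had values above 0 (median 0.58, highest 0.99 for hnrnpa3). The median over all genes tested was 0.20, and 63.3% of all genes had values above 0. The smallest adjusted p among the named hnRNP genes was 0.299 for hnrnpa3, by limma. Among the 8 livers of the lake run alone, again 0 members were called, and 0 had an unadjusted p under 0.05. The Sm signs rested in part on single livers. Of the 7 Sm genes, 5 had values below 0 without littoral G08H10, 5 without littoral G10G05, 4 without benthic G10E03 and 3 without benthic G10F07. The littoral Sm sum was 282 ± 63.0 TPM (SD, n = 4) with G08H10 and 261 ± 59.2 TPM (SD, n = 3) without it, beside 255 ± 115 TPM (SD, n = 5) in benthic livers. All 8 hnRNP values stayed above 0 without any 1 liver, but their median was 0.33 without G08H10 and 0.33 without benthic G10G02, and 7 were above 0 with median-of-ratios scaling. The littoral hnRNP sum was 125 ± 40.2 TPM (SD, n = 4) with G08H10 and 142 ± 23.9 TPM (SD, n = 3) without it. The benthic hnRNP sum of 178 TPM was 151 ± 28.1 TPM (SD, n = 4) without G10G02.

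The balance between the groups within a liver does not depend on scaling between libraries. The ratio of summed Sm to summed SR and hnRNP levels was 0.834, 0.546, 0.801 and 0.587 in the riverine livers, 2.23, 0.897, 0.857 and 0.859 in the littoral livers, and 0.604, 0.623, 0.479, 1.36 and 0.820 in the benthic livers. Littoral G08H10 stood far above the rest, and benthic G10G01 came next. The other 3 littoral livers lay just above the riverine maximum, by less than the spread among riverine livers.

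G08H10 is the only littoral library of the riverine run. It lay above every riverine liver in 28 of 55 members (50.9%), against 20.1% of all genes, and these included 7 of 7 Sm and 9 of 12 LSM genes but 0 of 4 SR and 1 of 8 hnRNP genes. It was the highest of all 13 livers in 6 members (10.9%), against 4.43% of all genes, and the lowest in 12 (21.8%), against 21.3%. Against the mean of the other littoral livers, its median log2 difference was 0.51 for Sm, 0.04 for LSM, -0.17 for U1 and U2 snRNP, -0.65 for PRPF, -0.75 for SR and -1.03 for hnRNP genes, beside -0.77 over all genes tested. These groups also differ in transcript length, with medians of 633 bases for Sm, 1031 for LSM, 1620 for U1 and U2 snRNP, 2039 for SR, 2258 for hnRNP and 2833 for PRPF genes. Across the 55 members, which share this library, the difference and the length had a Spearman's rho of -0.68, beside -0.17 across all genes. Among all genes of at least 1 TPM, the median deviation of G08H10 from the mean of 13 livers was -0.20 below 1000 bases and -0.94 at 4000 bases and over. For benthic G10G01, which had the next highest ratio of Sm to SR and hnRNP levels, it was 0.235 and -0.045. The part of transcript length in the values of G08H10 and G10G01 was not tested.

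**Figure D4:**
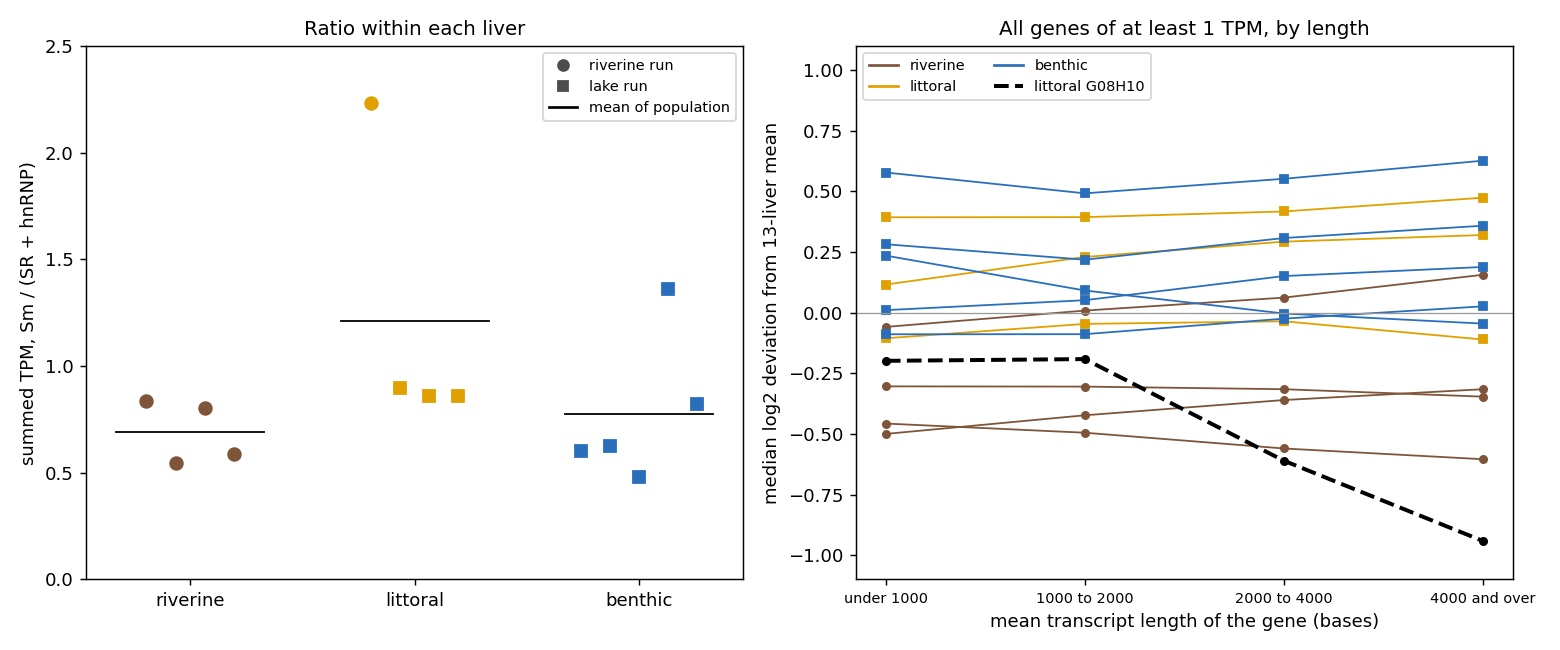
Left, ratio of summed Sm to summed SR and hnRNP TPM in each liver (circles for the riverine run, squares for the lake run, lines means); right, median log2 deviation of all genes of at least 1 TPM from their 13-liver mean, by transcript length, with 1 line per liver. G08H10 has the highest ratio, 2.23, and its line falls from -0.20 for the shortest to -0.94 for the longest genes.

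Benthic G10G02 held the highest value of 33 of the 55 members, and of 6 after median-of-ratios scaling. The lowest value of 35 members was in riverine livers G08F07, G09D07 and G09D10, and of 20 after that scaling. The share of all genes with their highest or lowest value in these livers was not counted. The factor of that scaling, the typical level of a library's genes, was 1.61 in G10G02, the largest of all livers. It was 0.656, 0.746 and 0.746 in those riverine livers, and 0.664 in littoral G08H10 of the same run. In riverine G09D04 it was 1.06, and in the livers of the lake run 0.945 to 1.61. The marker lists of other cell types did not all follow this order. The summed level of 10 leukocyte markers, of 19 listed, was 106 to 228 TPM in riverine, 129 to 528 TPM in littoral and 162 to 1927 TPM in benthic livers, with the highest value in G10G02. The 6 cycling markers, of 8 listed, summed to 6.30 to 20.6, 9.03 to 36.1 and 10.9 to 52.4 TPM, again highest in G10G02. That sum was mostly pcna (37.6 TPM in G10G02), and the genes were split. pcna, mcm2 and mcm5 were highest in G10G02, whereas top2a, ccnb1 and cdk1 were highest in littoral G10G05. The latter were at 1.31, 5.88 and 17.3 TPM in G10G05 and at 0.924, 1.27 and 6.89 TPM in G10G02. Hepatocyte markers (5 of 26 listed) were at 18862 TPM in G10G02, the lowest of all, and at up to 38406 TPM elsewhere. Without G10G02 the benthic sum of all members was 954 ± 201 TPM (SD, n = 4), 1.48 times the riverine mean. Endothelial and stromal markers (5 of 12) summed to 2.58 to 6.04 TPM in riverine, 1.853 to 12.8 TPM in littoral and 5.32 to 19.1 TPM in benthic livers. The highest sum was in G10G02, and these genes were split as well. pdgfrb, col1a1 and col1a2 were highest in G10G02, at 9.24, 3.50 and 5.05 TPM. tie1 and lum were highest in littoral G10G05, at 2.28 and 0.874 TPM, against 1.24 and 0.0473 TPM in G10G02. Erythroid markers (2 of 13) summed to 1.54 to 12.6 TPM in riverine, 0.826 to 2.44 TPM in littoral and 1.843 to 13.8 TPM in benthic livers. These 2 genes went opposite ways from riverine to benthic livers, so the sum shows no single erythroid pattern. All benthic values of gata1 lay below its riverine range of 0.917 to 12.4 TPM. For rhag the benthic livers, at 1.76 to 13.4 TPM, all lay above the riverine range of 0.217 to 0.823 TPM. The 1 pancreas marker found, of 16, was at 156 to 2068 TPM in riverine, 443 to 1620 TPM in littoral and 134 to 663 TPM in benthic livers, highest in riverine G09D07. Muscle markers (2 of 13) were at most 2.05 TPM, in riverine G09D04, and at most 0.886 TPM in lake livers. Their part in the levels of splicing factor genes was not tested.

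Transcript shares of the members, the percent of a gene's TPM taken by each annotated transcript, showed no call. The test covered 31 transcripts of 13 members with at least 1 TPM and a mean share of 5 to 95%. By limma, 0 of 31 were called in each comparison, against 0.141% (riverine to littoral), 0.368% (riverine to benthic) and 0.0216% (littoral to benthic) of 9243 transcripts, and 2, 1 and 4 of the 31 had an unadjusted p under 0.05. The 2 from riverine to littoral livers were forms of prpf3, and the 4 from littoral to benthic livers were forms of u2af2 and lsm6. Within each of these genes the differences were equal and of opposite sign, so the forms are not separate results. hnrnph1 had the 1 such transcript from riverine to benthic livers. The form XM_004541051.3 took at most 0.000632% of hnrnph1 in the riverine livers, 1.94, 2.51, 21.1 and 25.4% in the littoral livers, and 26.3, 22.0, 1.76, 17.4 and 18.2% in the benthic livers. The difference was 17.1 ± 6.12 points (SE), with limma's adjusted p = 0.302.

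In prpf3 the shares ran from near 0 to 100% within the riverine and within the benthic livers, and no difference was called. The form XM_024804298.1 took at most 0.000288% in 3 riverine livers and 100% in riverine G09D10, 100, 100, 100 and 72.9% in the littoral livers, and 75.3, 97.8, 50.7, 0 and 76.7% in the benthic livers. The difference from riverine to littoral livers was 68.2 ± 24.2 points (SE) with limma's adjusted p = 0.477. The 2 forms of prpf3 are 2917 and 2894 bases long, and the gene had 0.817 to 1.70 TPM in riverine livers, so that a share rests on a low level. For lsm6 and u2af2 the differences between littoral and benthic livers were 29.1 and 14.2 points, with adjusted p between 0.628 and 0.653.

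Spliceosome genes outside the symbol rule had medians above 0 in lake livers as well, and so did all genes. Of 65 further spliceosome genes, all tested, 10 were higher in benthic than in riverine livers and 0 were lower (15.4% called, against 9.66% of all genes called higher), with a median log2 fold change of 0.78 beside 0.62 over all genes. With median-of-ratios scaling 5 of the 65 were higher and 2 lower, beside 5.2% and 4.96% of all genes. With quantile normalization 4 of the 65 were higher, beside 2.74% of all genes. With the run as a covariate 0 of the 65 were higher and 2 lower, beside 0.26% and 1.93% of all genes. The 10 became 5 without riverine G08F07, 4 without riverine G09D07, 3 without riverine G09D10, 4 without benthic G10E09 and 5 without benthic G10G02. The share of all genes called higher fell as well, to 2.7%, 3.26%, 1.59%, 2.81% and 3.68% in that order. Without riverine G09D04 and without littoral G08H10 the 10 became 18 and 17, and the share of all genes became 15% and 12.9%. In littoral livers 2 were higher (3.08%, against 0.998% of all genes) and 0 lower, with a median of 0.56 beside 0.40 over all genes. From littoral to benthic livers 1 was higher (1.54%, against 0.312%), with a median of 0.13, below the 0.20 over all genes. eftud2, the GTPase of the U5 particle that works beside PRPF8, rose in both lake populations, by 2.78 ± 0.48 (SE, adjusted p = 0.0126) in littoral and 2.46 ± 0.45 (SE, adjusted p = 0.00896) in benthic livers on the log2 scale, by limma. Of 41 tested regulators of splicing and of snRNP assembly, 5 were higher in benthic livers (12.2%, near the 9.66% of all genes) and 0 in littoral livers. The 5 were coil, dyrk1a, gemin5, matr3 and wdr77. The medians of the 41 were 0.79 in benthic and 0.60 in littoral livers, beside 0.62 and 0.40 over all genes. With median-of-ratios scaling or the run as a covariate 1 of the 41 regulators was higher, beside 5.2% and 0.26% of all genes. Leaving out 1 liver gave 0 regulators without riverine G09D07 or G09D10, beside 3.26% and 1.59% of all genes. The most were 10 of the 41, without littoral G08H10, beside 12.9% of all genes. Members called higher and these lists share the same riverine livers and the same shift of all genes.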

How the data were processed

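Liver RNA of 13 fish was sequenced, and RRBS and WGBS libraries of the same series were not analysed here. The authors trimmed reads, trimmed those of the lake run to the length of the riverine run, quantified transcripts with kallisto against the annotation of Maylandia zebra (UMD2a) and deposited TPM per transcript, without normalization between libraries. The labels name ribosomal RNA depletion with a stranded kit, whereas the study's methods name poly(A) selection. Every column could be tied to a fish by its run and index (0 columns of other series). TPM were summed by gene symbol, genes averaging 0.1 TPM or more were kept, and log2(TPM + 0.1) was fitted with limma 3.58.1 in R 4.3.3 (3 populations in 1 fit, empirical Bayes with a trend), with Benjamini-Hochberg adjustment over all 21147 genes in each of 3 comparisons. Transcript shares were fitted the same way in percent. Both fits were tested on simulated data. The simulated expression values had independent noise for each gene, without a shift shared by the genes of a library or run. Simulated transcript shares varied less within a population than the real shares of prpf3. These simulations therefore do not show how the fits behave under such shifts or spreads.

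Named genes were members that were DEGs, the 6 called members with the largest change in each direction and comparison, the 2 most abundant of each role, and pairs of numbered symbols that differ by a final a or b. Of the genes this rule named, 1 is not reported here, though counts and sums over the members include it. Of the genes given, snrpd1, snrpd2, lsm2 and hnrnph1 were called but were not among those 6, and fall outside that rule. So do the members snrpa, snrpe, snrpf, sf3b3, prpf8, lsm8, lsm14b, hnrnpu and hnrnpll. Among genes outside the members, eftud2, pnn and the named regulators fall outside it too. All of these were named after their values were seen. The members, the gene lists and the tests were chosen with earlier results of these data known. Replicates are single wild fish. Alternatives were other pseudocounts, filters, scalings and variance fits, a run covariate, separate fits by pair, the lake run alone, and leaving out each liver. CG sites near the members could not be placed with the annotation used here, and no sequences are shown. Of the 55 symbols, 42 were also found in the RefSeq gene table of Astatotilapia calliptera. The depth of each library is unknown from TPM.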

Additional observations from a re-analysis of the deposited data

Results flagged for a closer look

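Of 96 groups examined (named genes and role sums in each population), 5 held 1 liver far from the others by Dixon's test, about as many as chance gives, since it marks about 1 group in 20. Riverine G09D04 stood above the other riverine livers for hnrnpk, at 17.5 TPM against 6.45 to 7.90 TPM, and for prpf3, at 1.70 TPM against 0.817 to 0.856 TPM. Littoral G10G05 stood above for hnrnpk, at 18.0 TPM against 12.6 to 13.5 TPM. Littoral G08H10 stood above for prpf19, at 8.93 TPM against 3.30 to 3.98 TPM. Benthic G10G02 stood above for snrpb, at 105 TPM against 31.4 to 49.0 TPM.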

How the results depend on the processing

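No paired analysis was possible, because each RNA library comes from a different wild fish and nothing in the labels pairs fish of different populations. From riverine to littoral livers, the 3 higher members became 8 with a filter at a mean of 1 TPM, 6 at 5 TPM, 0 with each pair in its own fit or without a variance trend, and 1 with a pseudocount of 1, no filter, median-of-ratios scaling or the run as a covariate. The covariate also gave 1 lower member, against 1.98% of all genes. DEGs there were 1 with a pseudocount of 0.01 or a filter at 1 or 5 TPM, and 2 with the run covariate. From riverine to benthic livers, the 11 higher members became 7 (12.7%) with a pseudocount of 1 or without a trend, against 4.61% and 10.1% of all genes. They became 6 with a filter at 5 TPM (14.6%, against 6.97%). They became 4 (7.27%) with median-of-ratios or quantile scaling, against 5.2% and 2.74%, and 0 with the run covariate, against 0.26%. Median-of-ratios scaling gave 1 lower member, against 4.96% of all genes. The 2 DEGs became 0 with that scaling, the run covariate, or an adjusted p under 0.01 and a 1.5-fold change, and 1 with quantile normalization. The share of all genes that were DEGs was not counted under the alternatives.

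The median log2 fold change of the members relative to all genes was 0.41 in littoral livers (0.58 with the run covariate). In benthic livers it was 0.19, and it became 0.38 and 0.45 with pseudocounts of 0.5 and 1, 0.36 without a filter, 0.55 with a filter at 5 TPM, 0.54 with quantile normalization and 0.45 with the run covariate. From littoral to benthic livers it was -0.16, and 0.085 with a filter at 5 TPM. Ratios of summed TPM fell to 1.23 (littoral, where G08H10 stood far above the other livers) and 1.07 (benthic to riverine) with median-of-ratios scaling. Leaving out each liver gave 0 to 11 higher members and 0 to 2 DEGs for littoral livers, and 1 to 20 and 1 to 3 for benthic livers. In the same fits 0.245% to 3.39% of all genes were higher in littoral and 1.59% to 15% in benthic livers. Scaling by genes of at least 10 TPM, chosen after seeing the data, gave 4 (7.27%) and 10 (18.2%) higher members, against 1.24% and 9.12% of all genes. hnrnph1 turned to -0.0026 in benthic livers with the run covariate. All values relative to riverine livers with that covariate rest on G08H10, the only littoral library of the riverine run. Where a cause is not given by the alternative's construction, it was not tested. The tests of CG sites were not run.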
